A study of Mus musculus with 13 samples.

Results

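The 10 genes described here belong to heart muscle and were followed in RNA from mouse lung: Myh6, Tnnt2, Tnni3, Actc1, Ryr2, Myl7, Myl4, Nppa, Sln and Mybpc3. They were chosen by symbol from the deposited tables, and all 10 were found among the 20270 genes listed and were among the 15315 genes kept for testing after genes with low counts had been removed. Lung RNA came from the lower right lobe of 13 mice. The Control group was 4 wildtype mice (replicates 3, 21, 24 and 26), for which the study's methods give sterile saline as the vehicle. The WT bleomycin group was 5 wildtype mice (replicates 4, 2, 5, 4-B2 and 7) at day 14 after 1 oropharyngeal aspiration of bleomycin at 1 U per kg, a drug that injures the lung and leads to fibrosis. The CB1R KO bleomycin group was 4 mice (replicates 8, 9, 10 and 11) with the same dose and time and described as lacking Cnr1, which encodes cannabinoid receptor 1 (CB1R). The methods describe the wildtype mice as male C57BL/6J obtained at 13 weeks of age and the knockout as Cnr1-/- on the same background, so that the receptor is missing from the whole animal rather than from 1 cell type. The 13 libraries include no knockout mice without the drug. Drug and genotype therefore cannot be told apart in CB1R KO bleomycin against Control. Whether the genotypes differed without the drug was not tested.

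Heart muscle does not stop at the wall of the left atrium in mice. A sleeve of striated cardiac muscle continues along the pulmonary veins into the lung, and its cells contract with the atrium and carry atrial forms of the contractile proteins. Contraction in these cells starts when calcium leaves the sarcoplasmic reticulum through the ryanodine receptor and binds the troponin complex on the thin filament, which lets the myosin heads of the thick filament pull on actin. In bulk tissue the level of such a gene depends on the muscle in the piece taken and on the RNA made per muscle cell. Each level is also a share of the library's total, so it depends on the RNA of all other cells. Fewer muscle cells, less RNA per cell and more RNA from other cells cannot be told apart.

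Depth was alike in 12 libraries, which held 14615904 to 16662580 estimated counts, while CB1R KO replicate 11 held 53463884. Lung markers were abundant everywhere, the 7 alveolar markers summing to 21164 to 39709 TPM (a transcript level scaled for transcript length and for the library's total). Cnr1 itself was listed at 0.403 to 1.05 TPM in Control, 0.848 to 1.85 TPM in WT bleomycin and 0.648 to 1.50 TPM in the libraries labelled CB1R KO. The position of these reads within the gene is not known, so Cnr1 does not check the genotype and the group names are those of the labels. In the titles, Control 26 and WT bleomycin 4-B2 and 7 are written in capitals and the other 10 libraries in lower case, a difference whose reason is not given in the sources used here.

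Promoters of 9 of the 10 genes, all but Sln, were found in RefSeq tables of build GRCm38.p6, an older build than the GRCm39 named in the submitters' processing notes, and were searched on both strands for 4 motifs known from muscle promoters. The CArG box, the site of serum response factor, was found in 2 of the 9 genes, Actc1 and Myl7, and in 1.47% of 32851 promoters of the same length. The MEF2 box was found in Mybpc3 alone and in 2.92% of all promoters. AGATAA, a form of the GATA site, was found in Tnnt2 and in 9.99% of all promoters. CATTCC, the MCAT site, was found in Myh6, Myl7 and Tnnt2 and in 12.6%. The 9 genes had 10 promoters, as Tnnt2 had a further promoter that held none of the 4 motifs. The percentages count promoters rather than genes. Other forms of the GATA site were not searched for, and TGATAA occurs in the sequences of Myl7, Mybpc3 and Nppa printed below. The 250 bases before the start are printed below for the genes with a CArG or MEF2 box and for Nppa. Nppa, the gene whose level followed the others least, held none of the 4 motifs. Myl4, Ryr2 and Tnni3 held none either, and Ryr2 followed the others most closely. Capitals mark the CArG box in Actc1, the CATTCC and the CArG box in Myl7 and the MEF2 box in Mybpc3, whose first bases lie 47 (Actc1, CArG), 70 and 61 (Myl7) and 90 (Mybpc3) bases before the start. No match overlapped another. Each is written 5' to 3' on the gene's own strand. The positions are chr2:114052876-114053125 on the minus strand for Actc1, chr11:5898783-5899032 on the minus strand for Myl7, chr2:91117894-91118143 on the plus strand for Mybpc3 and chr4:148000472-148000721 on the plus strand for Nppa.
Actc1: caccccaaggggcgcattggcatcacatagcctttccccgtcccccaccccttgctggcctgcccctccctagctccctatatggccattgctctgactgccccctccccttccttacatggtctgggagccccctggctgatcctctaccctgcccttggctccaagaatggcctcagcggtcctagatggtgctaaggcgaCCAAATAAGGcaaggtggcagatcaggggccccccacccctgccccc
Myl7: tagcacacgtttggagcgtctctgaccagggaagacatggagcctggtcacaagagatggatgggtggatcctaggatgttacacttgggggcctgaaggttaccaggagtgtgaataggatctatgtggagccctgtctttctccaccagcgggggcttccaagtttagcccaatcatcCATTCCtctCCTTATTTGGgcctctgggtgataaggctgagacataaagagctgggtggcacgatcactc
Mybpc3: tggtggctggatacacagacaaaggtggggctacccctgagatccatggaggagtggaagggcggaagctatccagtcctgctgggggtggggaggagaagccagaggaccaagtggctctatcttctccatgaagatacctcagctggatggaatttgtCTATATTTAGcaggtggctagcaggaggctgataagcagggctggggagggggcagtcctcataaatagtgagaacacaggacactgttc
Nppa: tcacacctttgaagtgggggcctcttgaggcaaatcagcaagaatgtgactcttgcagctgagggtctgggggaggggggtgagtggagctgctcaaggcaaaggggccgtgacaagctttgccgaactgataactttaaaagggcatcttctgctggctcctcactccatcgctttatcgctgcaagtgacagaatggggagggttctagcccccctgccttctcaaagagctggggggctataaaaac
A match of letters is a description of the sequence and was not tested against the expression values.

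As a share of each library, all 10 cardiac transcripts were lower in bleomycin lungs of WT mice than in Control lungs. Of the 10 genes, 10 were lower past an adjusted p of 0.05 (edgeR quasi-likelihood test, Benjamini-Hochberg over all genes tested), where 23.9% of all genes tested were called lower. The median log2 fold change was -1.92, against -0.01 over all genes tested, and the single genes ranged from -2.40 (Nppa) to -1.12 (Mybpc3). In 8 of the 10 genes every WT bleomycin library lay below every Control library, which held for 18.8% of all genes. By their fitted means the CB1R KO bleomycin lungs lay between. In them 10 of 10 genes were higher than in WT bleomycin lungs and lower than in Control lungs. Against WT bleomycin 0 of 10 passed the test, where 0.359% of all genes tested were called higher. Against Control 3 of 10 passed, where 16.3% of all genes tested were called lower.

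**Figure D1:**
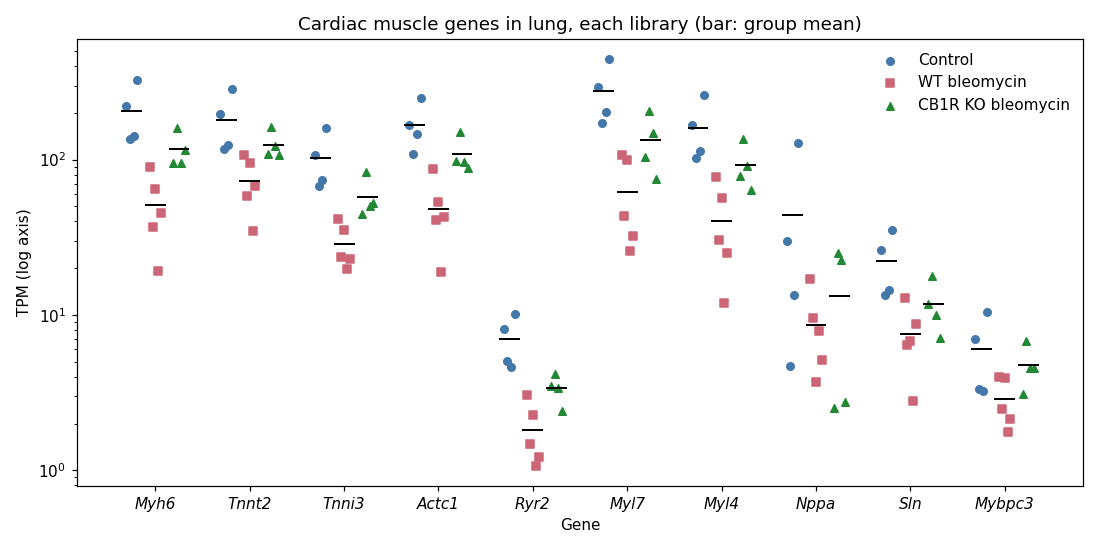
TPM of the 10 cardiac muscle genes in each of the 13 libraries on a log axis, with circles for Control, squares for WT bleomycin and triangles for CB1R KO bleomycin, and a bar at each group mean. The Control points lie above the WT bleomycin points without overlap for 8 genes, while those of Nppa and Mybpc3 overlap.

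The thick filament was represented by the motor protein, its light chains and a binding protein. Myh6, the alpha myosin heavy chain of atrium and adult mouse heart, was at 222, 136, 141 and 325 TPM in Control replicates 3, 21, 24 and 26. In WT bleomycin replicates 4, 2, 5, 4-B2 and 7 it was at 89.3, 36.8, 64.3, 19.2 and 45.1 TPM. In CB1R KO bleomycin replicates 8, 9, 10 and 11 it was at 95.0, 159, 95.7 and 115 TPM. The 3 groups separated except that CB1R KO 9 reached into the Control range. Myh6 fell by 2.15 on the log2 scale (SE 0.38, adjusted p = 0.000311, edgeR) from Control to WT bleomycin, to 22.6% of the Control level.

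Myl7, the atrial regulatory light chain, had the highest mean of the 10 over the 13 libraries, although in WT bleomycin its mean of 61.7 TPM was below that of Tnnt2, 72.7 TPM. Its levels were 292, 173, 202 and 443 TPM in Control, 107, 43.5, 99.8, 25.8 and 32.2 TPM in WT bleomycin, and 103, 206, 148 and 75.4 TPM in CB1R KO bleomycin, in the same order of replicates. All Control libraries lay above all WT bleomycin libraries, and CB1R KO overlapped both. The log2 change from Control to WT bleomycin was -2.21 (SE 0.41, adjusted p = 0.000509, edgeR). Myl4, the atrial essential light chain, was at 167, 102, 113 and 260 TPM in Control, at 77.8, 30.6, 56.3, 12.0 and 25.0 TPM in WT bleomycin, and at 78.6, 137, 91.0 and 64.0 TPM in CB1R KO bleomycin. It fell by 2.04 (SE 0.41, adjusted p = 0.000953, edgeR) with bleomycin in WT lungs and had the widest span after Nppa, 21.7 times between its highest and lowest library.

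Mybpc3, the cardiac myosin-binding protein C that braces the thick filament, was scarce. Its Control libraries had 6.98, 3.36, 3.25 and 10.5 TPM, its WT bleomycin libraries 3.96, 2.47, 3.95, 1.75 and 2.15 TPM, and its CB1R KO libraries 3.08, 6.81, 4.54 and 4.56 TPM. Control 21 and 24 lay below WT bleomycin 4 and 5, so the groups overlapped. The fall of 1.12 (SE 0.35, adjusted p = 0.0168, edgeR) was the smallest of the 10, and without Control 26 the log2 change was -0.69 with an adjusted p = 0.0931, which did not pass.

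The thin filament was represented by actin and both cardiac troponins. Tnnt2, the cardiac troponin T that anchors the complex to tropomyosin, was at 198, 117, 125 and 284 TPM in Control, at 107, 58.2, 95.2, 34.9 and 67.7 TPM in WT bleomycin and at 108, 161, 123 and 108 TPM in CB1R KO bleomycin. Control lay above WT bleomycin without overlap, and the log2 change was -1.38 (SE 0.29, adjusted p = 0.00139, edgeR). Tnni3, the inhibitory cardiac troponin I, had 107, 67.4, 73.7 and 160 TPM in Control, 41.7, 23.5, 35.3, 19.7 and 22.8 TPM in WT bleomycin and 44.5, 83.3, 50.2 and 52.2 TPM in CB1R KO bleomycin. Its 3 groups separated except for CB1R KO 9, and it fell by 1.97 (SE 0.30, adjusted p = 9.7e-05, edgeR). Actc1, the alpha-cardiac actin, was at 167, 109, 145 and 251 TPM in Control, at 86.6, 40.9, 53.0, 18.8 and 42.6 TPM in WT bleomycin and at 97.3, 151, 96.2 and 87.9 TPM in CB1R KO bleomycin. It fell by 1.84 (SE 0.32, adjusted p = 0.000293, edgeR), again without overlap of Control and WT bleomycin.

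The calcium genes were Ryr2 and Sln. Ryr2, the ryanodine receptor through which calcium leaves the store, was at 8.11, 5.07, 4.65 and 10.1 TPM in Control, at 3.03, 1.47, 2.28, 1.07 and 1.22 TPM in WT bleomycin and at 3.51, 4.18, 3.39 and 2.39 TPM in CB1R KO bleomycin. It was the 1 gene of the 10 in which Control lay above both bleomycin groups without overlap. It fell by 1.88 (SE 0.28, adjusted p = 8.81e-05, edgeR) in WT lungs, and it had the lowest adjusted p and the smallest spread of the 10. Sln, or sarcolipin, a small inhibitor of the pump that refills the store in atrial and some skeletal muscle, was at 26.1, 13.5, 14.4 and 35.0 TPM in Control, 12.8, 6.41, 6.78, 2.81 and 8.78 TPM in WT bleomycin and 11.8, 17.9, 10.1 and 7.11 TPM in CB1R KO bleomycin. The lowest Control library lay just above the highest WT bleomycin library, and the log2 change was -1.61 (SE 0.37, adjusted p = 0.00241, edgeR).

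Nppa, the precursor of atrial natriuretic peptide, a hormone that atrial muscle stores and secretes, varied least like the contractile genes. It was at 30.0, 4.67, 13.5 and 127 TPM in Control, at 17.1, 9.55, 3.69, 7.89 and 5.10 TPM in WT bleomycin and at 2.51, 25.2, 22.7 and 2.77 TPM in CB1R KO bleomycin. Control libraries differed by 27.2 times among themselves, and CB1R KO libraries split into a pair at 2.51 and 2.77 TPM and a pair at 22.7 and 25.2 TPM. The fitted change was the largest of the 10 at -2.40, but its SE was 0.85 and its adjusted p was 0.0296 (edgeR). Without Control 26 the log2 change was -0.92 with an adjusted p = 0.334, and the call was lost as well without WT bleomycin 2, 5, 4-B2 or 7 in turn, at adjusted p of 0.0521, 0.0668, 0.0559 and 0.063.

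Ordered by level per transcript length, the mean TPM over the 13 libraries was 150 for Myl7, 122 for Tnnt2, 119 for Myh6, 104 for Actc1, 93.3 for Myl4, 60.1 for Tnni3, 20.9 for Nppa, 13.3 for Sln, 4.42 for Mybpc3 and 3.88 for Ryr2. The first 5 overlapped: Myl7 exceeded Tnnt2 in 7 of 13 libraries, Tnnt2 exceeded Myh6 in 8 and Myh6 exceeded Actc1 in 9. Tnni3 lay above Nppa in 13 of 13 libraries and Sln above Mybpc3 in 13 of 13, each without overlap in 2 of the 3 groups, while Nppa exceeded Sln in 7 and Mybpc3 exceeded Ryr2 in 9. Among all genes tested, the mean level of Myl7 stood at percentile 95.0 and that of Ryr2 at percentile 22.6. Myh6, Tnnt2, Tnni3, Ryr2 and Myl4 had estimated counts that were not whole in any library (tolerance 0.001), as arises when reads are shared between transcripts, and the split between Myh6 and its near-identical neighbour Myh7 is uncertain.

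The genes varied together from lung to lung. Control 26 was the highest of the 13 libraries in 10 of 10 genes, and WT bleomycin 4-B2 was the lowest in 9 of 10, the exception being Nppa, which was lowest in CB1R KO 8. The summed level of the 10 genes was 1222, 730, 836 and 1906 TPM in Control, 547, 253, 421, 144 and 253 TPM in WT bleomycin and 548, 952, 645 and 519 TPM in CB1R KO bleomycin. Mice of the same group thus differed by up to 2.61 times in Control, 3.80 times in WT bleomycin and 1.83 times in CB1R KO bleomycin. The spread within groups, as the SD of log2 CPM (counts scaled to the library's total), was 0.49 for Ryr2 to 1.54 for Nppa, against a median of 0.17 over all genes tested, and stood between percentiles 90.5 and 99.7 of them. Both extreme libraries have titles in capitals, and the part of the labels' style or of the amount of tissue in this spread was not tested.

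**Figure D2:**
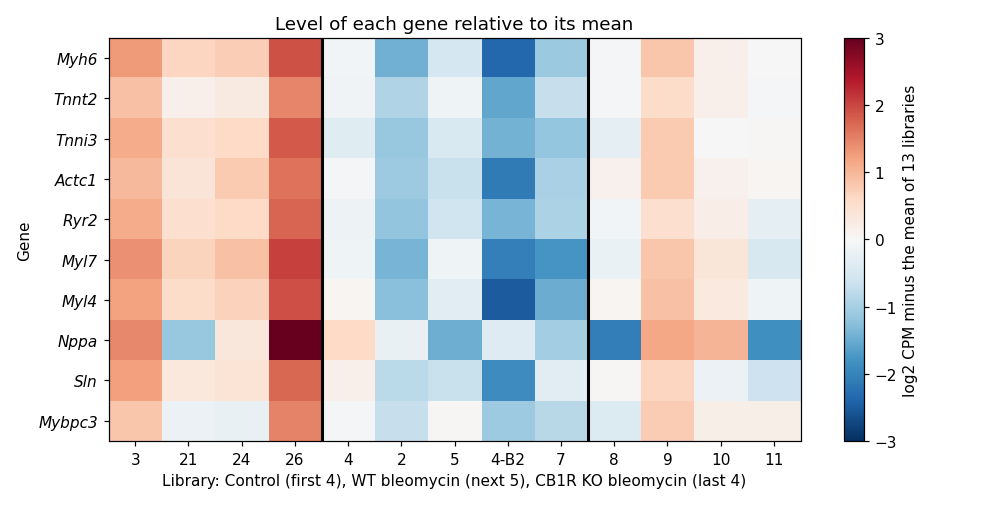
Log2 CPM of each gene minus its mean over the 13 libraries, with genes in rows, libraries in columns and black lines between the groups. Columns are coloured alike from top to bottom, Control 26 is the darkest red in every row and WT bleomycin 4-B2 the darkest blue in 9, while the Nppa row departs from the others.

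Over the 13 libraries, the 36 pairs of genes without Nppa had Pearson's r of 0.83 to 0.99 in log2 CPM, with a median of 0.96. After the group means were removed, r was still 0.74 to 0.98. The 9 pairs with Nppa had 0.56 to 0.70, and 0.51 to 0.72 within groups. Against the mean of the other genes, within groups, Ryr2 had the highest r, 0.98, Tnnt2 had 0.95 and Nppa had 0.62. These are descriptions of 13 libraries in which all genes share the same RNA, depth and scaling, and so carry no test.

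**Figure D3:**
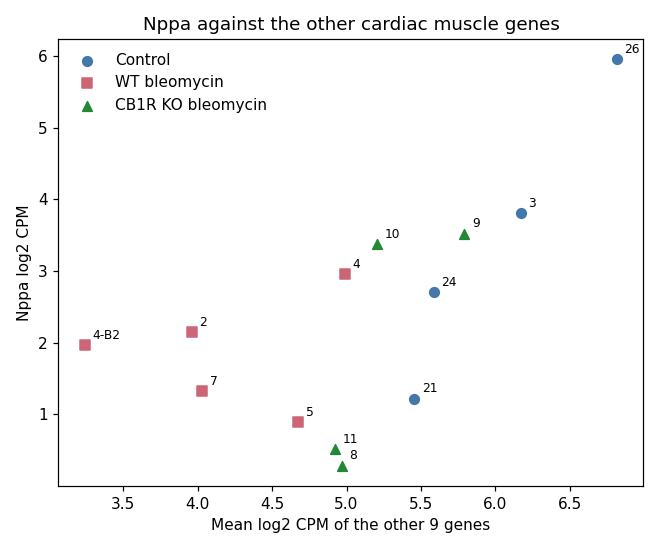
Log2 CPM of Nppa against the mean log2 CPM of the other 9 genes, 1 point per library with its replicate number and a symbol for its group. CB1R KO 8 and 11 have the lowest Nppa of all libraries at a middle level of the other genes, and Control 26 is highest on both axes.

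To see whether the mix of the transcripts differed too, each gene was set against the mean log2 CPM of the other 9 in every library and compared between groups with two-sided exact permutation tests. Of 30 tests, 0 passed after Benjamini-Hochberg adjustment (smallest adjusted p = 0.214). With these group sizes and 30 tests, 1 gene alone at the smallest possible p of 0.00794 (exact permutation) has an adjusted p of 0.238, so no single gene could have passed by itself. Before adjustment, 4 of 10 genes in WT bleomycin against Control had p under 0.05, 1 in CB1R KO bleomycin against Control and 0 in CB1R KO against WT bleomycin. Mybpc3 stood higher against its companions in WT bleomycin than in Control, by 0.89 on the log2 scale (-1.13 ± 0.28, SD, n = 5, against -2.02 ± 0.20, n = 4), without overlap (exact permutation p = 0.00794, the smallest that these group sizes allow, adjusted p = 0.214). Against Control it was also higher in CB1R KO bleomycin, by 0.62 (exact permutation p = 0.0286, the smallest possible with 4 against 4, adjusted p = 0.214). The difference of Myh6 from its companions was -0.49 (exact permutation p = 0.0159, adjusted p = 0.214), that of Myl7 was -0.59 (exact permutation p = 0.0476, adjusted p = 0.238) and that of Tnnt2 was 0.48 (exact permutation p = 0.0238, adjusted p = 0.214), from Control to WT bleomycin. Myh7, the beta heavy chain that works beside Myh6, made up 3.83% to 18.5% of the summed TPM of both, and was 3.24 to 16.5 TPM.

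The comparison of CB1R KO with WT bleomycin lungs asked whether the cardiac transcripts differed with the receptor's deletion at the same day of injury. By their fitted means 10 of 10 genes were higher in CB1R KO, with log2 fold changes of 0.54 (Nppa) to 1.19 (Myh6) and a median of 0.96, against 0.00 over all genes tested. None passed: 0 of 10 had an adjusted p under 0.05 in edgeR, where 0.359% of all genes were called higher. Before adjustment 7 of 10 had a p under 0.05 (edgeR). In the same fit Myh1, with an unadjusted p of 0.0471 (edgeR), ranked 2513 among 15315 genes. Cfd, with an unadjusted p of 0.0516 (edgeR), ranked 2661. At least 2513 and fewer than 2661 of the 15315 genes thus had an unadjusted p under 0.05 (edgeR). DESeq2 called 1, Ryr2. Without WT bleomycin 4, edgeR called 1, Actc1. In Actc1, Myh6, Tnni3 and Tnnt2 every CB1R KO library lay above every WT bleomycin library, 4 of 10 genes against 2.5% of all genes. For Tnnt2 the gap was small, from 107.5 TPM in WT bleomycin 4 to 107.6 TPM in CB1R KO 11.

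Actc1 came nearest to the threshold, with a log2 difference of 1.13 (SE 0.32, adjusted p = 0.0988, edgeR). Tnni3 differed by 1.03 (SE 0.30, adjusted p = 0.112), Myh6 by 1.19 (SE 0.37, adjusted p = 0.133) and Ryr2 by 0.90 (SE 0.29, adjusted p = 0.141) in the same fit. Myl4 and Myl7, the atrial light chains, differed by 1.16 (SE 0.41) and 1.08 (SE 0.41). Sln differed by 0.59 (SE 0.38), Mybpc3 by 0.70 (SE 0.35) and Nppa by 0.54 (SE 0.88). A difference that did not pass does not show that the groups were alike.

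Against Control, the CB1R KO bleomycin lungs had 27.5% (Nppa) to 74.5% (Mybpc3) of the Control level by fitted means, and the median log2 fold change was -0.95, against -0.01 over all genes tested. The test called 3 of 10 genes lower, where it called 16.3% of all genes lower. These were Ryr2 with a change of -0.98 (SE 0.29, adjusted p = 0.0173, edgeR), Tnni3 with -0.94 (SE 0.31, adjusted p = 0.028) and Myl7 with -1.13 (SE 0.42, adjusted p = 0.0497). Ryr2 was the 1 gene of 10 whose CB1R KO libraries all lay below the Control libraries, by a very small gap, as 15.8% of all genes did. Without Control 26, 0 of 10 were called, Ryr2 standing at -0.66 (adjusted p = 0.0699), and without CB1R KO 11 likewise 0. Without CB1R KO 9, the highest of its group, 5 were called, and without CB1R KO 8 or 10 it was 1. Mybpc3, at -0.42 with all libraries, stood at 0.01 without Control 26. This comparison and that of WT bleomycin share the Control libraries, and this one and the last share the CB1R KO libraries.

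**Figure D4:**
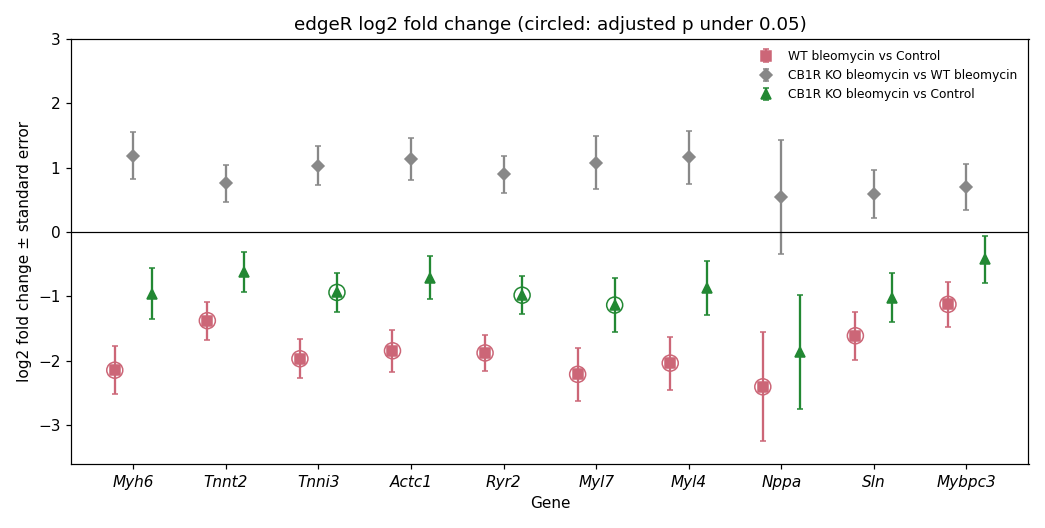
Log2 fold change of each gene with its standard error from the edgeR fit of 13 libraries, for WT bleomycin against Control (squares), CB1R KO against WT bleomycin (diamonds) and CB1R KO bleomycin against Control (triangles), with circles around values past an adjusted p of 0.05. All 10 squares are circled and lie below 0, no diamond is circled, and Ryr2, Tnni3 and Myl7 are the circled triangles.

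Within the libraries of lower-case titles, 3 Control against 3 WT bleomycin, 8 of 10 genes were still called lower, with log2 changes of -1.49 for Myh6, -1.44 for Myl7, -1.38 for Tnni3 and -1.35 for Ryr2, while Nppa (-0.71, adjusted p = 0.56) and Mybpc3 (-0.43, adjusted p = 0.344) were not called by edgeR. In the same libraries 0 of 10 were called between CB1R KO and WT bleomycin, where Myh6 differed by 0.86, and 0 of 10 between CB1R KO bleomycin and Control. The libraries titled in capitals, 1 Control and 2 WT bleomycin, were too few for a comparison of their own. With Control 26 and WT bleomycin 4-B2 left out together, 8 of 10 genes were again called lower in WT bleomycin than in Control. This choice was made after their values were seen. The share of all genes called in these smaller fits is not reported here. The 23.9% belongs to the fit of 13 libraries, so the counts cannot be set against it.

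The label of pulmonary vein muscle was set against chamber markers. The atrial light chains Myl7 and Myl4 were at 25.8 TPM and 12.0 TPM even in the lowest library, whereas Myl2, the ventricular light chain, was listed at 0 in 7 of 13 libraries and reached 3.26 TPM in Control 3, at most 1.10% of the summed level of Myl2 and Myl7. Irx4, a ventricular transcription factor, was at or under 0.0837 TPM. Of 10 atrial markers, which include Myl7, Myl4, Nppa and Sln, 8 were tested, and 7 were called lower and 1 (Gja5) higher in WT bleomycin than in Control. Of 4 ventricular markers 2 were tested, Myl3 (-1.66, SE 0.52) and Myh7 (-1.53, SE 0.25), and both were called lower. Of all genes tested, 23.9% were called lower in that comparison. Bmp10, a growth factor of atrial muscle, was listed at 0 in all libraries but Control 26 and WT bleomycin 5. Nkx2-5, a transcription factor of heart muscle, reached 0.836 TPM and was too low to be tested. RNA from a whole lobe cannot tell the sleeves of veins apart from a fragment of attached atrium.

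Most other sarcomere genes were lower too. Of 24 listed, 22 were tested, and 19 were called lower in WT bleomycin than in Control and 1 higher. Of all genes tested 23.9% were called lower, and the median log2 change of the 22 was -1.61. Smpx, a small striated muscle protein, changed by -2.94 (SE 0.80), Lmod2, which lengthens thin filaments, by -2.45 (SE 0.39), Tcap, the cap of titin, by -2.34 (SE 0.33) and Mybphl by -2.27 (SE 0.42), with adjusted p from 4.76e-05 to 0.00731 in edgeR. Smpx was scarce and its groups overlapped, at 0.821 to 9.81 TPM in Control and 0.159 to 1.53 TPM in WT bleomycin. The 1 called higher was Tpm1 (0.50, SE 0.08), a tropomyosin that smooth muscle and fibroblasts also make, at 388 to 641 TPM. Between CB1R KO and WT bleomycin, 0 of the 22 were called, although 19 were higher by their fitted means and the median was 0.96. Against Control, CB1R KO lungs had 5 called lower, Lmod2, Tcap, Myh7, Synpo2l and Actn2, where 16.3% of all genes were called lower. Tpm1 was called higher.

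Calcium handling and conduction genes included several that other tissues also use. All 21 were tested, and 13 were called lower and 4 higher in WT bleomycin than in Control. Of all genes tested 23.9% were called lower, and the median of the 21 was -0.58. Among the 15315 genes tested, 7492 were called in that comparison, 3658 of them lower and the rest higher. The largest falls were in Kcnj3 (-2.89, SE 0.52) and Kcnj5 (-2.04, SE 0.30), subunits of the channel through which acetylcholine slows the atrium, Hrc (-2.18, SE 0.36), a calcium-binding protein of the store, and Srl (-1.80, SE 0.36), or sarcalumenin. Those called higher were the gap junction genes Gja1 (1.22, SE 0.11) and Gja5 (0.62, SE 0.16), Fkbp1b (0.77, SE 0.16) and the sodium-calcium exchanger Slc8a1 (0.60, SE 0.12), named after their values were seen. Between CB1R KO and WT bleomycin 0 of 21 were called. Against Control, CB1R KO lungs had 4 called lower, among them Hrc, Kcnj5 and Kcnq1, a share close to the 16.3% of all genes. Called higher were 2, Gja1 and Slc8a1.

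Genes of muscle energy use fell as well. Of 11, 10 were called lower in WT bleomycin, against 23.9% of all genes, and 0 higher, with a median of -1.64. Ckmt2 (-2.63, SE 0.41) and Ckm (-2.40, SE 0.43) encode creatine kinases, Mb (-2.58, SE 0.41) encodes myoglobin, the oxygen store of muscle, and Cox8b (-2.31, SE 0.38) encodes a muscle subunit of cytochrome oxidase. Among the sarcomere, calcium and energy genes, Ckmt2 was the 1 called higher in CB1R KO than in WT bleomycin lungs, by 1.86 (SE 0.41, adjusted p = 0.0488, edgeR). Its levels were 17.2, 9.84, 9.33 and 26.1 TPM in Control, 4.31, 1.62, 3.43, 1.33 and 2.30 TPM in WT bleomycin and 5.79, 17.0, 6.54 and 9.27 TPM in CB1R KO bleomycin. CB1R KO thus lay above WT bleomycin without overlap. Against Control, 2 of the 11 were called lower in CB1R KO lungs, Fabp3 and Eno3, a share close to the 16.3% of all genes.

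Regulators and the hormone pathway came next. Of 13 regulators of cardiac transcription 8 were tested, and 2 were called lower in WT bleomycin, a share close to the 23.9% of all genes tested. These were the transcription factor Tbx20 (-1.54, SE 0.37) and Smyd1 (-1.54, SE 0.33), which is not a transcription factor itself. The median over the 8 was -0.19, and 0 were called in the other comparisons. In the natriuretic peptide pathway beyond Nppa, 5 of 7 were tested. Corin, the protease that cuts the Nppa product into the active hormone, was called lower (-1.68, SE 0.36), and so were the receptors Npr1 (-0.86, SE 0.06) and Npr2 (-0.79, SE 0.08), while the protease Furin was called higher (0.69, SE 0.08). Npr1 was called higher in CB1R KO than in WT bleomycin by 0.28 (SE 0.06, adjusted p = 0.0449, edgeR) and Furin lower (-0.36, SE 0.08, adjusted p = 0.0411). Both receptors and Furin are made by many lung cells.

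Across all genes tested, those whose level followed the mean of the cardiac genes most closely after group means were removed included Pln, Ttn, Actn2, Cmya5, Myom2, Hrc, Synpo2l, Mybphl and Eef1a2, with r of 0.98 down to 0.94 over 13 libraries. Pln, phospholamban, the pump inhibitor that works beside Sln, had the highest, 0.98, and was at 14.5 to 32.1 TPM in Control, 4.76 to 16.0 TPM in WT bleomycin and 11.3 to 24.9 TPM in CB1R KO bleomycin. Eef1a2, an elongation factor of muscle and nerve, was the 1 of these genes outside the lists of heart muscle genes above.

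Markers of tissue that can come along with a lobe were looked at in the same way. Of 8 fat markers, 6 were tested, 4 were called lower in WT bleomycin than in Control (Cidec, Plin1, Retn and Plin4, from -2.14 to -1.51, against 23.9% of all genes), and the median was -1.62. In CB1R KO against WT bleomycin 6 of 6 were higher by their fitted means with a median of 1.46, and 0 were called. Their summed level was 71.0 to 265 TPM in Control, 25.1 to 149 TPM in WT bleomycin and 64.7 to 269 TPM in CB1R KO bleomycin, and the r of the list's mean log2 CPM with the cardiac mean within groups was 0.74. Adipoq, which defines fat cells, was at 1.57 to 22.0 TPM, and Ucp1, of brown fat, was at or under 0.365 TPM. Cardiac and fat levels did not keep the same order, since CB1R KO 11 had 233 TPM of fat markers with 519 TPM of the cardiac genes and CB1R KO 8 had 64.7 TPM with 548 TPM. The part of attached fat in the cardiac differences was not tested.

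Skeletal muscle markers summed to 17.7 to 31.3 TPM with a median log2 change of 0.04 from Control to WT bleomycin. Of 20, 11 were tested, and 1 was called lower in WT bleomycin (Atp2a1, -1.17, SE 0.38), against 23.9% of all genes. Called higher were 3, Tnni1 (3.69, SE 0.94), Mybpc2 (1.71, SE 0.14) and Casq1 (0.69, SE 0.26). Of 15315 genes tested, 7492 were called in that comparison, 3658 of them lower and the rest higher. Tnni1 was near the floor, at or under 0.28 TPM in Control. Of the fast myosins, Myh4 and Myh2 were at or under 0.0596 TPM in every library and Myh1 at or under 1.07 TPM. Acta1, the skeletal actin, was at or under 1.46 TPM, and the fast light chain Mylpf and fast troponin Tnnt3 reached 8.74 TPM and 6.97 TPM. Smooth muscle markers summed to 612 to 721 TPM in Control, 730 to 1089 TPM in WT bleomycin and 640 to 749 TPM in CB1R KO bleomycin. Of these 10 genes, 4 were called higher in WT bleomycin, with Actg2 at 1.09 and Tagln at 0.80. The number called lower was 3, with Myh11 at -0.58, against 23.9% of all genes. Tagln (-0.63) and Actg2 (-0.80) were called lower in CB1R KO than in WT bleomycin. Within groups, r with the cardiac mean was 0.50 for the skeletal and 0.79 for the smooth muscle list.

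Mesothelial markers summed to 108 to 169 TPM with r of -0.10 to the cardiac mean within groups. Of 5 genes 2 were called lower (Upk3b and Upk1b) and 1 higher (Msln) in WT bleomycin. Of all genes tested, 23.9% were called lower in that comparison. Endothelial markers of large vessels and veins had 1 of 5 called lower, Bmx, a share close to that of all genes. Vwf was called higher, and the r of the list was -0.38. Thymus, liver and cartilage markers summed to at most 12.0 TPM, 4.69 TPM and 0.559 TPM, and 2 of 7, 1 of 5 and 0 of 5 of them were high enough to be tested. The 7 alveolar markers had 5 called lower in WT bleomycin, with a median of -0.83, and Sftpc (0.66) and Sftpa1 (0.84), made by the cells that secrete surfactant, were called higher in CB1R KO than in WT bleomycin. Their r with the cardiac mean within groups was 0.10. The part of any of these tissues in the cardiac differences was not tested.

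**Figure D5:**
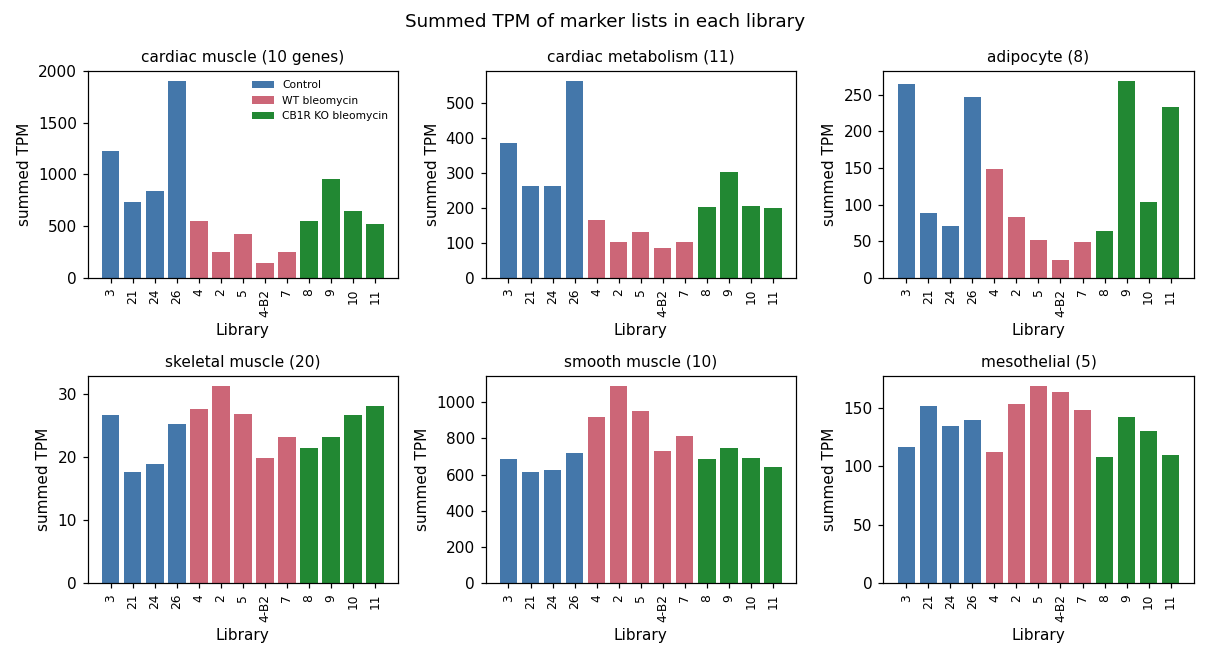
Summed TPM of 6 marker lists in each library, with bars from 0 coloured by group and the number of genes in each panel's title. Cardiac muscle and cardiac metabolism share the same tall and short libraries, fat markers are high in Control 3 and 26 and CB1R KO 9 and 11, and the mean skeletal muscle, smooth muscle and mesothelial bars are higher in WT bleomycin than in Control.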

How the data were processed

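RNA libraries of 13 mouse lungs were compared in 3 groups taken from the labels. Per the study's methods and the submitters' notes, the authors enriched mRNA with oligo(dT) beads (NEBNext Ultra II), sequenced paired ends and quantified reads with kallisto on the Ensembl mouse reference (GRCm39), adding up the protein-coding transcripts per gene symbol. The deposited tables hold these estimated counts, not normalized, and TPM values, scaled by the authors' quantification for transcript length and library total; 1 column of the TPM table that matched no sample was not used. Depth was 14615904 to 16662580 estimated counts in 12 libraries and 53463884 in CB1R KO 11.

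Estimated counts were rounded, filtered with filterByExpr and fitted for all 13 libraries in edgeR (version 4.0.16 under R 4.3.3, quasi-likelihood, TMM, no covariates), with Benjamini-Hochberg adjustment over 15315 genes at 0.05. Log2 CPM used a prior count of 2. Levels between genes were compared as TPM. Groups were called non-overlapping on CPM. Two-sided exact permutation tests served for single values per mouse. The procedure was tested on simulated data. Alternatives were no filter, RLE normalization, DESeq2 1.42.0, limma 3.58.1 on log2 TPM with pseudocounts of 1 and 0.1, 2 groups only, robust spread, the title style as a batch term or lower-case titles alone, CB1R KO 11 thinned to its group's depth, and each library left out. Plots were drawn with matplotlib 3.10.9 in Python 3.11.15.

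The genes and lists were chosen with earlier results of these data known. Beside the 10 genes, the text names at most 4 genes past the threshold with the largest changes per list and comparison, defining markers, and the 10 genes most like the cardiac mean; further genes are named where a count of 5 or fewer called for it. Some genes that this rule selects are not reported here. The labels do not say how lungs were dissected, and p-values set group differences against the spread between these mice.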

Additional observations from a re-analysis of the deposited data

Results flagged for a closer look

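Among 30 sets of libraries, 1 for each gene and group, 1 had a library far from the rest: Actc1 in CB1R KO bleomycin replicate 9 was at 131 CPM, against 78.3 to 83.2 CPM in the other 3 CB1R KO libraries, and its gap to the nearest of them took up 0.882 of the group's range on the log2 scale. Chance alone gives such a gap in about 1 of 20 sets. CB1R KO 9 was also the highest of its group for the other 9 genes.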

How the results depend on the processing

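The number of genes called lower in WT bleomycin than in Control, 10, was 8 to 10 in every alternative. Of these genes 8 were called in all 19, and the share of all genes called in each alternative is not reported here. Nppa lost its call in 11 of 19 (log2 change -2.78 to -0.71) and Mybpc3 in 3 (-1.33 to -0.43). Between CB1R KO and WT bleomycin, 0 genes became 1 with DESeq2 (Ryr2, 0.91, adjusted p = 0.0323) and 0 to 1 when libraries were left out in turn, the 1 being Actc1 (1.42, adjusted p = 0.0337) without WT bleomycin 4; for Nppa the difference ran from -0.00132, without CB1R KO 9, to 0.936 with 1 library left out, and up to 0.96 over all 20 alternatives. Between CB1R KO bleomycin and Control, 3 called genes became 1 with limma on log2(TPM + 1), 1 with limma on log2(TPM + 0.1), 5 in a fit of the 2 groups alone, 1 with the title style as a batch term, 0 with lower-case titles only, 0 with Control 26 and WT bleomycin 4-B2 left out together, and 0 to 5 with each library left out in turn. Ryr2 kept its call there in 15 of 19 alternatives, Tnni3 in 10 and Myl7 in 4. For Mybpc3 the sign of that comparison turned, to 0.0133 with lower-case titles and 0.00776 with Control 26 and WT bleomycin 4-B2 left out, and ran from -0.64 to 0.00784 with 1 library left out. The cause of these shifts was not tested. The tests of the mix of the 10 genes are too small for a single gene to pass, so their 0 adjusted calls in 15 alternatives say nothing about stability. No paired analysis was possible because the groups share no replicate numbers.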
